A study of Mus musculus with 27 samples.

Results

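The 6 genes described here encode the signal-transducing SMAD proteins of the mouse: Smad1, Smad5 and Smad9, Smad2 and Smad3, and Smad4. They were taken by name from a liver RNA table of 22552 genes, in which all 6 had a row. The inhibitory family members Smad6 and Smad7 were not among them. Livers came from male C57B/6J mice on diets that differed in carbonyl iron. The low-iron diet (LID) held 0.9 mg of it per kg and was given from 3 weeks of age. The standard-iron diet (SID), at 50 mg per kg, and the high-iron diet (HID), at 8.3 g per kg, both began at 6 weeks of age. Low iron and the earlier start thus came together and cannot be told apart. Each diet had 3 RNA libraries and 3 animals with DNA libraries. Whether an animal gave both RNA and DNA is not in the labels.

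SMAD proteins carry signals of the transforming growth factor beta (TGF-beta) superfamily to the nucleus. Receptors for bone morphogenetic proteins (BMPs) phosphorylate SMAD1, SMAD5 and SMAD9, receptors for TGF-beta and activin phosphorylate SMAD2 and SMAD3, and both kinds pair with SMAD4 before they act on genes. In hepatocytes the BMP branch drives hepcidin, the hormone that limits iron entry into blood. SMAD9, also called SMAD8, is known from cultured mammalian cells as a weak activator whose own gene is induced by BMP signals.

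Among the 6 signal-transducing SMAD genes, Smad9 was the one whose RNA level was called between diets. It stood at 0.840 FPKM in LID, 1.66 FPKM in SID and 5.78 FPKM in HID. FPKM are fragment counts scaled by transcript length and library size, so levels of different genes may be set side by side. Each is 1 value per diet that the authors combined over libraries, with no SD and an unknown read depth. The level in HID was 3.48 times that in SID (the authors' deposited table, adjusted p = 3.45e-12). The level in LID was 0.506 times that in SID (the authors' deposited table, adjusted p = 0.0236). Between the iron extremes the level in HID was 6.88 times that in LID, and the adjusted p in the authors' deposited table was listed as 0. The 3 comparisons share their diets, so they are not independent of each other.

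As a difference of log2(FPKM + 1), a scale that compresses the changes of weakly expressed genes, Smad9 gave 1.35 (HID versus SID), −0.53 (LID versus SID) and 1.88 (HID versus LID). A gene counted as tested when its mean over the diets was at least 1 FPKM and its adjusted p was below 1, and as called when that p was below 0.05. The median difference over all tested genes was −0.07, −0.13 and 0.06 in these comparisons. Relative to these medians the Smad9 differences were 1.42, −0.40 and 1.82. The size of this relative difference exceeded that of 98.6% of 9473 tested genes for HID versus SID, 84.7% of 9482 for LID versus SID and 99.2% of 9490 for HID versus LID. By level, Smad9 lay above 0.848% of the 9548 genes with a mean of at least 1 FPKM in LID, above 13.2% in SID and above 48.7% in HID.

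**Figure D1:**
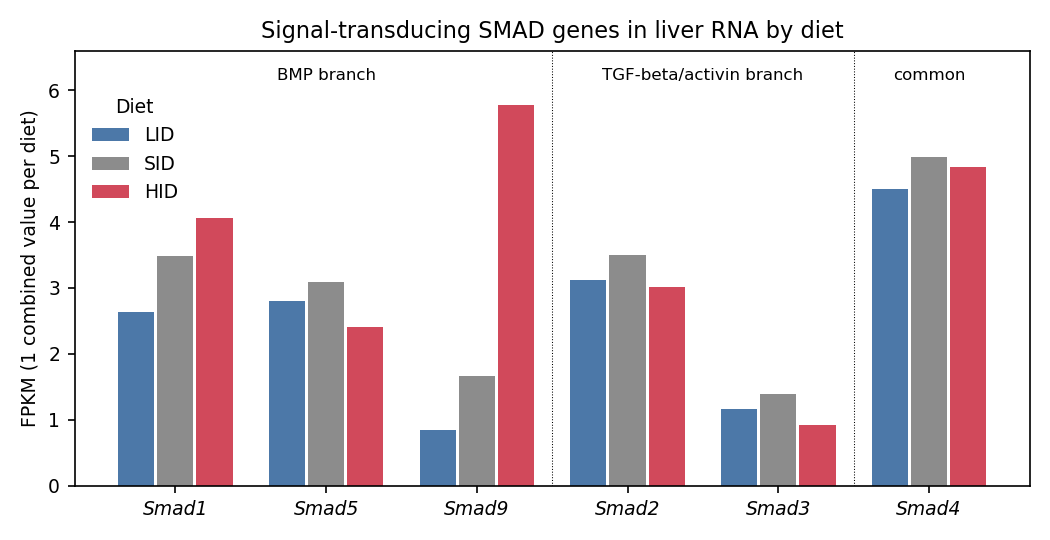
Bars give the FPKM (y axis, linear, from 0) of each SMAD gene in LID, SID and HID, 1 value per diet combined by the authors, so without error bars. Smad9 stands at 0.840, 1.66 and 5.78 FPKM over the diets, while Smad4 stays between 4.51 and 4.995 FPKM.

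The other BMP-branch genes, Smad1 and Smad5, were not called in any comparison. Smad1 stood at 2.64 FPKM in LID, 3.48 in SID and 4.07 in HID, the same order of diets as Smad9. Its level in HID was 1.54 times that in LID, and the authors' deposited table listed an unadjusted p of 0.0280 (passed by 10.2% of all tested genes at 0.05) and an adjusted p of 0.252. Against SID, its adjusted p in the authors' deposited table was 0.800 in HID and 0.556 in LID. Smad5 stood at 2.81 FPKM in LID, 3.09 in SID and 2.41 in HID, so its highest value was in SID. The adjusted p of Smad5 in the authors' deposited table was 0.547 for HID versus SID, 0.893 for LID versus SID and 0.837 for HID versus LID.

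The makeup of the BMP branch differed between diets. The summed level of Smad1, Smad5 and Smad9 was 6.28 FPKM in LID, 8.23 in SID and 12.3 in HID, whereas Smad1 and Smad5 alone summed to 5.44 FPKM in LID, 6.57 in SID and 6.48 in HID. Smad9 made up 13.4% of the 3-gene sum in LID, 20.2% in SID and 47.2% in HID. It was the lowest of the 6 SMAD genes in LID, the fifth in SID and the highest in HID. Its level was 0.319 times that of Smad1 in LID, 0.478 times in SID and 1.42 times in HID. These shares and ratios rest on single values per diet and carry no test. In bulk liver RNA, more cells that express a gene and more RNA per cell cannot be told apart.

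The TGF-beta and activin branch was not called in any comparison. Smad2 stood at 3.13 FPKM in LID, 3.51 in SID and 3.01 in HID, with an adjusted p of at least 0.822 in each comparison of the authors' deposited table. Smad3, the lowest of the 6 genes in SID and HID, stood at 1.16 FPKM in LID, 1.39 in SID and 0.914 in HID. Its level in HID was 0.658 times that in SID, and the authors' deposited table listed an unadjusted p of 0.0267 (18.1% of all tested genes fell below 0.05) and an adjusted p of 0.245. Its adjusted p in the authors' deposited table was 0.809 for LID versus SID and 0.753 for HID versus LID. The sum of Smad2 and Smad3 was 4.28 FPKM in LID, 4.90 in SID and 3.92 in HID. The BMP-branch sum was thus 1.47 times the Smad2 and Smad3 sum in LID, 1.68 times in SID and 3.12 times in HID.

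Smad4, the partner common to both branches, varied least of the 6 genes, with its highest diet 1.11 times its lowest. It stood at 4.51 FPKM in LID, 4.995 in SID and 4.84 in HID. Its adjusted p in the authors' deposited table was 0.979 for HID versus SID, 0.888 for LID versus SID and 0.944 for HID versus LID. Relative to the summed receptor-regulated SMADs, its level was 0.426 in LID, 0.380 in SID and 0.299 in HID.

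All 6 genes passed the filter on low values in every comparison, and 1 of 6, Smad9, was called in each, while the other 5 were called in none. Of all tested genes, 6.66% were called for HID versus SID (2.82% higher, 3.84% lower). For LID versus SID the share was 4.88% (1.57% higher, 3.31% lower), and for HID versus LID 3.94% (2.1% higher, 1.84% lower). The 6 genes had a median log2 difference of −0.10 (HID versus SID), −0.14 (LID versus SID) and 0.02 (HID versus LID), close to the medians over all tested genes given above. For LID versus SID all 6 differences were below 0, but relative to the median of all tested genes 3 of the 6 lay above it (Smad2, Smad4 and Smad5). A missed threshold does not show that the levels of these genes were equal.

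**Figure D2:**
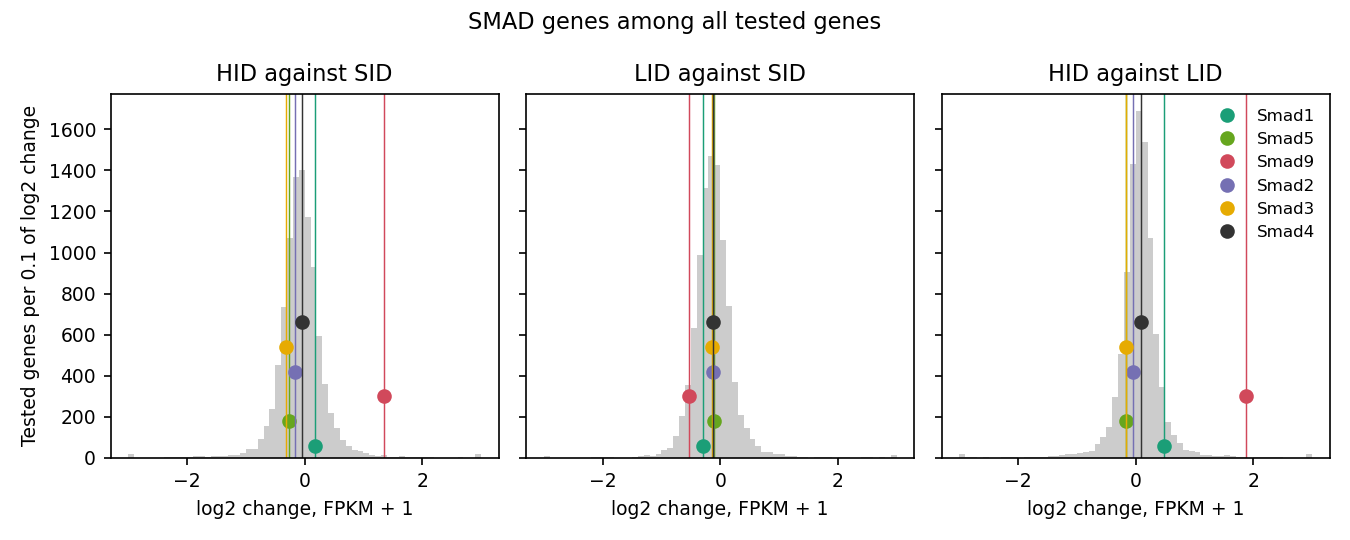
Grey histograms give the log2(FPKM + 1) difference (x axis) of all tested genes in 3 comparisons, with values beyond ±3 drawn at the edge, and the y axis counts genes per bin. Coloured points with vertical lines mark the SMAD genes and their height carries no value. Smad9 lies at 1.35, −0.53 and 1.88, and the other 5 genes lie within the bulk of the histograms.

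Sequences upstream of the BMP-branch genes are shown because Smad9 was called in every comparison and its closest relatives in none. Whether these sequences bear on the calls was not tested. RefSeq promoter windows on GRCm38.p6 were at hand for 4 of the 6 genes, and the 250 bases before the annotated start were searched on both strands. GGCGCC, a palindrome, is the GC-rich element through which BMP-activated SMADs are known to bind target genes such as Id1. The Smad9 window (chr3:54755332-54755581, plus strand) held 1 such element, in capitals below, which began 51 bases before the start. The Smad1 window (chr8:79399429-79399678, minus strand) and the first of 3 Smad5 windows (chr13:56702760-56703009, plus strand) held none. The second Smad5 window, which overlaps the first and is not printed, held 1 that began 19 bases before its own start. The third Smad5 window and the Smad3 window held none. The element thus occurred upstream of Smad5, which was not called, as well as of Smad9. Of 32851 such windows in the table, 9.59% held this element. G and C made up 73.2% of the Smad9 window, the highest of the member windows, and the share over all windows is not matched for this. A match of letters is a description and not a measured binding site. The RefSeq record of Smad9 begins before the start used for this window.
Smad9: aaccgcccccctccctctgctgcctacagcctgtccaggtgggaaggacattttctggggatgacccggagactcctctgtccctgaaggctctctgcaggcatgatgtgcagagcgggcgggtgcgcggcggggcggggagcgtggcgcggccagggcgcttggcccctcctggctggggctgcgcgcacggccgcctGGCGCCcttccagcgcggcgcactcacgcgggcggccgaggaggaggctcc
Smad1: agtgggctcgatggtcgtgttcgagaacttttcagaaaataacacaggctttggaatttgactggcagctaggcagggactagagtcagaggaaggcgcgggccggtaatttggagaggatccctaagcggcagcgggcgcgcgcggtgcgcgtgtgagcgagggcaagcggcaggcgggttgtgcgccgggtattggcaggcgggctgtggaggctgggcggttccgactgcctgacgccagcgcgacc
Smad5: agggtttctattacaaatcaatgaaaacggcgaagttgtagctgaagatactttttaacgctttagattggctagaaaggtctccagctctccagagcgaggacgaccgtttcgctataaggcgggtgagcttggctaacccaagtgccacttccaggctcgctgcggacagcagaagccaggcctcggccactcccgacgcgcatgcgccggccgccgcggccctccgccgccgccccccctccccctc

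Which genes shared the Smad9 pattern was read from the pair of log2 differences versus SID, as the Euclidean distance to Smad9 over 9547 other genes with a mean of at least 1 FPKM. With 3 diets the measure holds little information. The nearest genes were Rnaset2a (distance 0.115), Smad7 (0.224), Rnaset2b (0.238), Gsta1 (0.256) and Nudt18 (0.282). Smad7, the inhibitory SMAD that shuts off receptor signals, stood at 0.841 FPKM in LID, 1.66 in SID and 6.93 in HID. Rnaset2a and Rnaset2b are near-identical ribonuclease genes whose reads may be split between them, and the adjusted p of Rnaset2a in the authors' deposited table was listed as 1. The adjusted p of Smad7 for LID versus SID in the authors' deposited table was 0.0532, so it missed the threshold there. Rnaset2b (0.292), Gsta1 (0.530) and Nudt18 (0.599) missed it too, by the same deposited adjusted p. The lower level in LID was thus called for Smad9 and for none of these nearest genes. Smad7 in LID nevertheless stood at 0.506 times its SID level, as Smad9 did, so the calls do not set Smad9 apart from Smad7. Gsta1, a glutathione transferase gene, stood at 1.19 FPKM in LID, 2.195 in SID and 8.71 in HID, and Nudt18, a nucleotide hydrolase gene, at 1.56, 2.07 and 6.39 FPKM in the same diets.

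The 124 genes of 9 lists around the SMADs were all in the table. Among the upstream genes, the BMP ligands had 2 of 4 tested members higher in HID than in SID (Bmp2 and Bmp6), beside 2.82% of all tested genes, and 0 of 4 called in LID versus SID. Bmp6 passed the filter on low values only through HID, at 2.51 FPKM in HID against 0.803 in SID, and without it the count in HID was 1 of 3. Of the TGF-beta and activin ligands, 1 of 5 fell in HID, beside 3.84% of all tested genes called lower, and 2 of 5 fell in LID, beside 3.31%. Inhbc, which encodes a liver activin subunit, stood at 9.61 FPKM in HID against 25.5 in SID (the authors' deposited table, adjusted p = 1.19e-08). In LID it stood at 10.7 FPKM against the same SID value (the authors' deposited table, adjusted p = 3.95e-07). Inhbe, another liver activin subunit gene, stood at 4.90 FPKM in LID against 11.4 in SID (the authors' deposited table, adjusted p = 3.54e-05), and at 10.3 FPKM in HID. Inhbc was thus lower on both diets than on SID, and Inhbe was called in LID and not in HID. Inhbe was also higher in HID than in LID (the authors' deposited table, adjusted p = 0.00549). Tgfb3, a TGF-beta ligand gene with a mean under the filter, stood at 0.716 FPKM in HID against 0.254 in SID (the authors' deposited table, adjusted p = 0.0197).

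The BMP receptor and coreceptor list had 0 of 5 tested members called in each comparison, and Hfe2, the hemojuvelin gene, and Neo1 had the smallest p. The smallest adjusted p of Hfe2 in the authors' deposited table was 0.309 (HID versus LID), and that of Neo1 was 0.592 (HID versus SID). The TGF-beta and activin receptor list had 0 of 4 called in each. With 3.94% to 6.66% of all tested genes called, lists of this size would hold few or no calls, so these counts do not set receptors apart. Tgfbr2, the type II TGF-beta receptor gene, stood at 4.47 FPKM in HID against 3.05 in SID (the authors' deposited table, adjusted p = 0.229). Acvr1b, an activin type I receptor gene, followed with 1.02 FPKM in HID against 0.737 in SID and an adjusted p, from the authors' deposited table, of 0.633, and its mean was under the filter.

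Inhibitory SMADs and antagonists had 3 of 8 tested members higher in HID than in SID, beside 2.82% of all tested genes, and 0 lower. The 3 were Smad6, Smad7 and Fst, the gene of the activin-binding protein follistatin. Fst stood at 3.85 FPKM in HID against 2.12 in SID (the authors' deposited table, adjusted p = 0.0435). Bambi, a pseudoreceptor, had a mean just under the filter (0.989 FPKM), and stood at 1.64 FPKM in HID against 0.726 in SID (the authors' deposited table, adjusted p = 0.00176).

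Genes of proteins that act on SMADs directly were called at about the share of all tested genes. Of 14 tested ubiquitin ligases and phosphatases, 1 was called in HID versus SID, where 6.66% of all tested genes were called, and 0 in LID versus SID. It was Nedd4l, a ligase known to mark activated SMAD2 and SMAD3 for degradation, at 2.79 FPKM in HID against 4.73 in SID (the authors' deposited table, adjusted p = 0.0372). Of 20 tested anchors, transport factors and chromatin partners, 0 were called in HID versus SID and 1 in LID versus SID, where 4.88% of all tested genes were called. Cited2, a cofactor that binds the coactivators CBP and p300, stood at 18.7 FPKM in LID against 9.76 in SID (the authors' deposited table, adjusted p = 0.000983), and at 6.42 FPKM in HID.

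Most tested target genes of the BMP branch were called higher in HID, and most were called lower in LID, than in SID. Of 10 tested targets, 6 rose in HID and 0 fell, beside 2.82% of all tested genes called higher, and 6 fell in LID and 0 rose, beside 3.31% called lower. Between the extremes 9 of 10 were higher in HID than in LID and 0 lower, beside 2.1% of all tested genes called higher. The median log2 difference of this list, relative to all tested genes, was 1.29 for HID versus SID and −1.11 for LID versus SID. Those higher in HID than in SID were Hamp2, Id1, Id4, Smad6, Smad7 and Atoh8, and those lower in LID than in SID were Hamp, Hamp2, Id1, Id2, Id3 and Atoh8. Id4, an inhibitor of DNA-binding helix-loop-helix proteins, stood at 7.14 FPKM in HID against 0.460 in SID, with an adjusted p listed as 0 in the authors' deposited table. It passed the filter on low values only through HID, and without it 5 of 9 targets were higher in HID than in SID and 8 of 9 higher in HID than in LID. In LID it stood at 0.394 FPKM against the same SID value (the authors' deposited table, adjusted p = 0.957). Tmprss6, the tested target called in no comparison, stood at 68.6 FPKM in LID, 103 in SID and 72.6 in HID. Smad9 itself was not on this list, and Smad6 and Smad7 were also counted among the inhibitory SMADs above. The list was drawn up with earlier results of these data known, so its counts are not independent evidence of direction.

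Targets ascribed to SMAD2 and SMAD3 had 0 of 11 tested members called in HID versus SID, where 6.66% of all tested genes were called, so that few or no calls would be usual for a list of this size. Cdkn1a, the cell cycle inhibitor p21, rose in LID and stood at 15.9 FPKM in LID against 6.49 in SID (the authors' deposited table, adjusted p = 1.44e-06). Ctgf, Tgfbi and the collagen genes on this list were not called. Thbs1, the thrombospondin 1 gene, had an adjusted p of 0.0003 for LID versus SID in the authors' deposited table, with a mean under the filter.

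**Figure D3:**
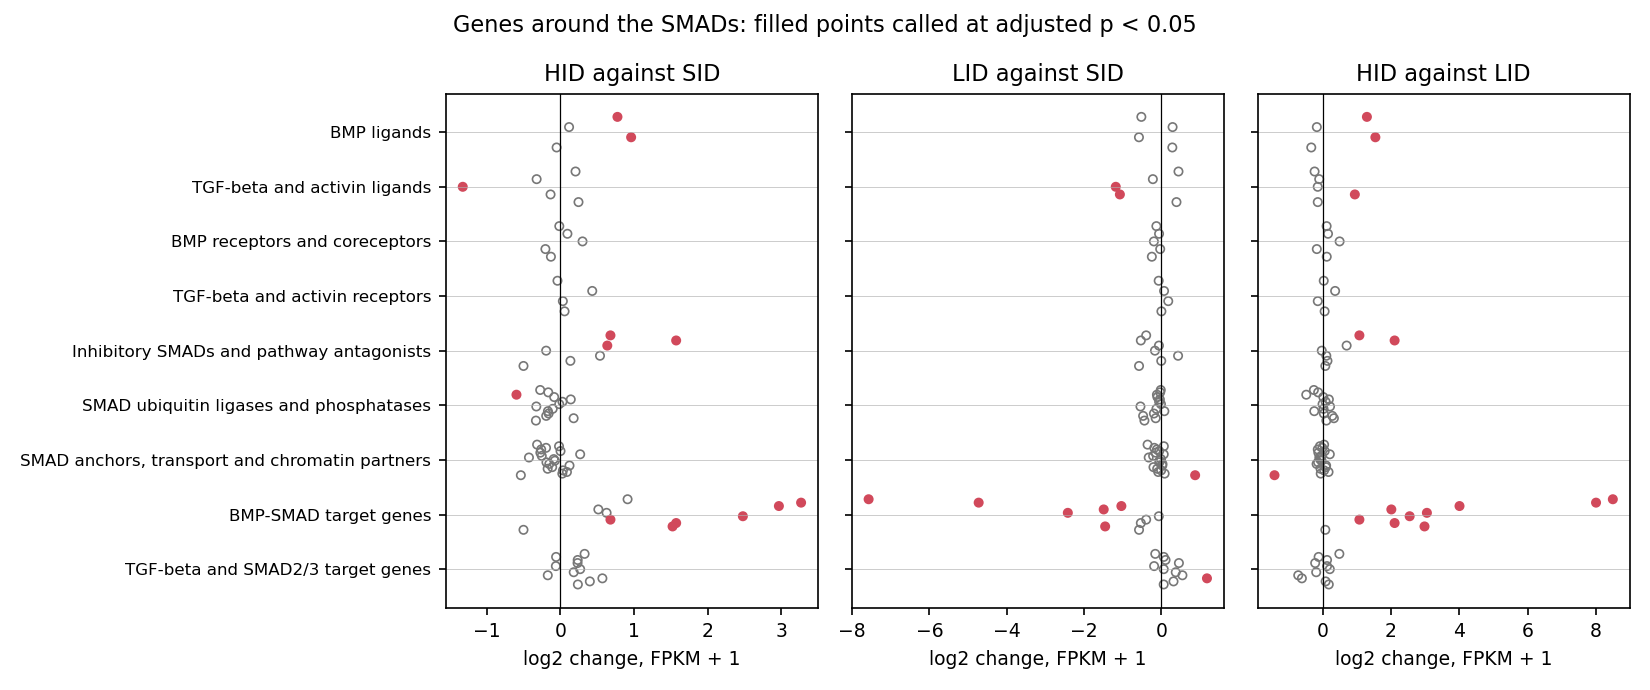
Each point is a tested gene of a list (rows), without genes whose results are not reported here, placed by its log2(FPKM + 1) difference (x axis, a separate scale per panel) in 3 comparisons, with filled red points for genes called at an adjusted p below 0.05 and height within a row carrying no value. The BMP target row spreads to the right in HID versus SID, with 6 of 10 filled, and to the left in LID versus SID, with 6 of 10 filled, while the receptor rows hold no filled point.

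Markers of liver cell types were read beside these values. For comparison with the counts below, 2.82% of all tested genes were called higher and 3.84% lower for HID versus SID. The shares were 1.57% and 3.31% for LID versus SID, and 2.1% and 1.84% for HID versus LID. Few or no calls would thus be usual for lists of this size. Hepatocyte markers had 0 of 5 tested members called in each comparison. Alb was listed at 0 in all diets, but with the status HIDATA in place of OK, so this 0 is not read as a measured level. The 6 sinusoidal endothelial markers summed to 57.0 FPKM in LID, 67.7 in SID and 75.9 in HID. Of them, 2 rose in HID (Lyve1 and Bmp2) and 2 in LID (Stab2 and Lyve1), and Bmp2 was also counted among the BMP ligands above. Most of the summed level was Clec4g, which was not called and stood at 39.2 FPKM in LID, 53.0 in SID and 56.5 in HID. Other members ran otherwise, since Stab2 was lower in HID than in LID, at 1.69 FPKM in HID against 3.45 in LID (the authors' deposited table, adjusted p = 0.0018), and Kdr and Pecam1 were highest in LID and not called. The 6 stellate cell markers summed to 94.2 FPKM in LID, 66.6 in SID and 92.5 in HID, with 0 of 5 tested called in HID versus SID and 1, Rgs5, higher in LID. Macrophage markers summed to 141 FPKM in LID, 75.6 in SID and 138 in HID, with 2 of 6 higher in HID than in SID and 4 of 6 in LID. Cholangiocyte markers summed to 26.4 FPKM in LID, 28.6 in SID and 54.3 in HID, and 2 of 3 tested rose in HID, Krt7 and Spp1. Spp1 alone made up 49.0 FPKM of the sum in HID and 25.1 in SID, Krt7 passed the filter only through HID, and Epcam and Sox9, under the filter, stood at 0.785 and 0.977 FPKM in HID against 0.800 and 0.964 in SID. Neutrophil markers summed to 194 FPKM in LID, 6.51 in SID and 21.3 in HID, with 2 of 2 tested higher in HID than in SID and 5 of 5 in LID. Of these 5, Ngp, Camp and Retnlg passed the filter only through LID, and without them the count in LID was 2 of 2. Erythroid markers summed to 1054 FPKM in LID, 739 in SID and 756 in HID, with 1 of 3 tested lower in HID than in SID, and 2 of 4 higher and 1 lower in LID. Lymphocyte markers summed to 2.751 FPKM in LID, 2.5002 in SID and 2.512 in HID. Pancreatic acinar markers summed to 14.8 FPKM in LID, 8.09 in SID and 5.03 in HID, with 0 of 4 tested called in each comparison. The part of cell makeup in the Smad9 levels was not tested.

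DNA methylation was given for a single site in a member gene, in intron 1 of Smad9 (transcript NM_019483). It lies at chr3:54568571-54568574 on mm9, a span of 4 bases, as at all 48 sites of the table. The DNA libraries were cut with HpaII, which is blocked by methylation of its recognition site, or MspI, which cuts the same site and is not. The bases at this position were not read here. Scores per animal ran between 1.18 and 98.4 over the table. Their formula and coverage, and whether a high score means more or less methylation, are unknown here. The table held 48 sites in 10 genes, and every one had a deposited p below 0.05 across the diets (highest 0.0494). The Smad9 site had a deposited p of 0.0147. These sites had thus been selected for differing, and the tests that follow describe a selected site.

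Animal codes in the labels begin with A for all 3 SID animals and the first 2 HID animals, and with M for all 3 LID animals and HID animal 3. What the letter stands for is not given, and for LID versus SID letter and diet cannot be told apart. HID animal 3 lay outside the other 2 HID animals at 46 of the 47 other sites. LID animal 1 lay outside the other 2 LID animals at 41 of the 47. For the remaining animals the same count within their diet ran from 20 to 37. Over the 30 sites with an SID mean of at most 50, the median score of LID animal 1 was 24.99, beside 54.6 and 50.3 in the other LID animals. Over the same sites HID animal 3 had a median score of 32.8, beside 10.3 and 8.84 in the HID animals of letter A.

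At the Smad9 site the LID animals scored 58.1, 50.4 and 54.2, the SID animals 71.1, 59.8 and 70.9, and the HID animals 66.6, 69.8 and 68.5. Every LID animal lay below every SID and HID animal, and the HID animals lay within the SID range. The mean was 54.2 ± 3.89 in LID and 67.3 ± 6.49 in SID (SD, n = 3 each), a difference of −13.0 (95% confidence interval −25.0 to −1.03). The limma adjusted p over the 48 sites was 0.0405, and the exact two-sided permutation p was 0.1, the smallest that 3 animals against 3 allow. Of the 48 sites, 91.7% were called for LID minus SID (60.4% higher, 31.2% lower). The limma call was lost without SID animal 1 (adjusted p = 0.132), SID animal 3 (0.118), LID animal 2 (0.111) or LID animal 3 (0.0680), and kept without LID animal 1 (−15.0, adjusted p = 0.0298).

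The HID mean was 68.3 ± 1.59 against 67.3 ± 6.49 in SID (SD, n = 3 each), a difference of 1.06 with a 95% confidence interval of −10.9 to 13.0. Its limma adjusted p was 0.933, its exact permutation p was 1, and its sign turned without SID animal 2 (−2.69). Without HID animal 3, which leaves letter A alone, the difference was 0.964. Over the table, limma called 0 of 48 sites for HID minus SID (0%), and 3 of 48 had an unadjusted p below 0.05. HID minus LID was 14.1 (95% confidence interval 2.09 to 26.1), with a limma adjusted p of 0.0383 and an exact permutation p of 0.1. Of the 48 sites, 68.8% were called in this comparison. The call was lost without any 1 of the 3 HID animals (adjusted p = 0.0978, 0.104 and 0.0524) and without LID animal 2 (0.124) or LID animal 3 (0.0871), and kept without LID animal 1 (16.02, adjusted p = 0.0247). At this site HID animal 3 lay between the other 2 HID animals, 14.3 above the LID mean with which it shares the letter M.

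Set beside the rest of the table, the Smad9 difference in LID ran the way of sites with a like level. Of 17 other sites with an SID mean above 50, all 17 were lower in LID than in SID, by a median of −17.7, and 12 of the 17 differences were larger than that of Smad9. Of 30 sites with an SID mean of at most 50, 29 were higher in LID. The SID values enter both the split and the difference, so the split by itself favours these directions. Smad6 and Smad7 had 13 and 6 sites in the table, while Smad9 had 1 and the other 5 member genes none. The Smad9 RNA level was lower in LID than in SID and higher in HID than in SID, whereas its site score was lower in LID and not called in HID.

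**Figure D4:**
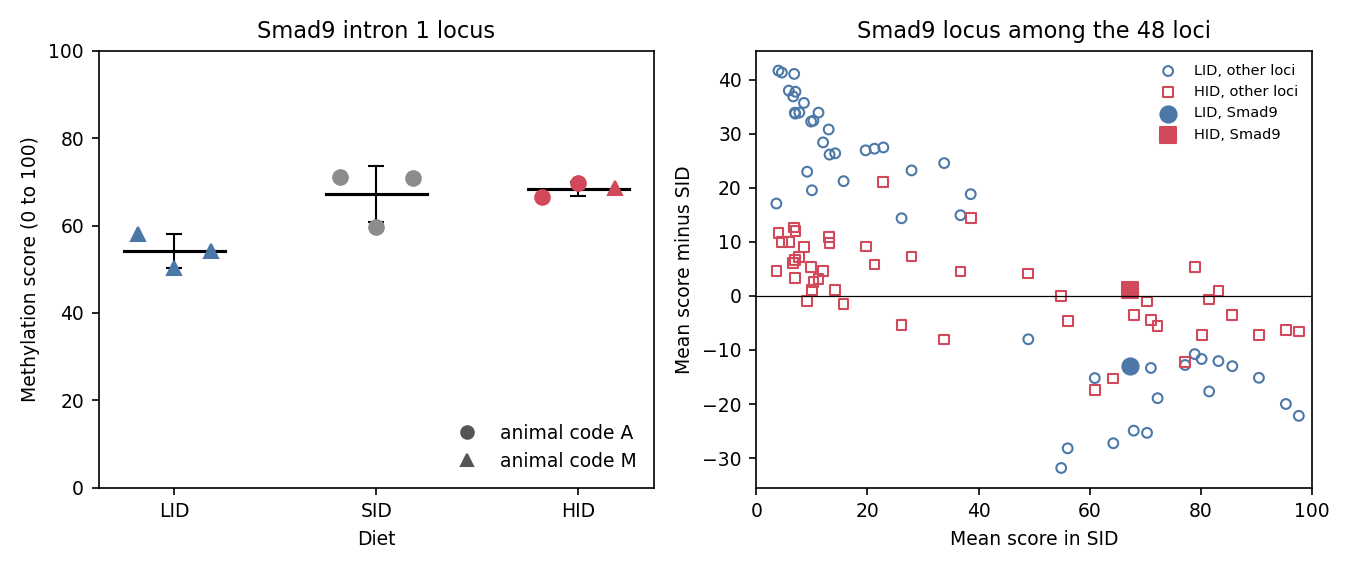
Left, the score of the Smad9 intron 1 site (y axis, score points) in each animal by diet, with lines at the mean, error bars of 1 SD (n = 3) and marker shape for the letter of the animal code. Right, the mean score of each of the 48 sites minus its SID mean (y axis, score points) against that SID mean (x axis), so that both axes share the SID values. The LID animals lie between 50.4 and 58.1, below all others, and Smad9 lies among the sites of like SID mean.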

How the data were processed

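Liver RNA was measured in 9 libraries and DNA methylation in 18 (HpaII and MspI, 1 of each per animal). TopHat and Cufflinks 2.2.1 on mm9 are named in the submitters' processing notes. For RNA, the authors deposited a single FPKM value for each gene in each diet, and the unit follows from Cufflinks, as the file headers do not state it. Its columns are headed NORM, LFE and GFE, and GFE was taken as HID by elimination. The deposited p-values and adjusted p-values are the authors', whose test is not stated. The methylation score was deposited per site and animal with no formula. Depth is unknown for both.

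From these, log2(FPKM + 1) differences, counts of called genes, sums and ratios were computed (Python 3.11.15, pandas 2.3.3). Scores were compared with limma 3.58.1 in R 4.3.3 over all 9 animals and 48 sites, with Benjamini-Hochberg adjustment over the sites of a comparison, beside exact permutation tests. The limma step was tested on simulated data with shifts far larger than the Smad9 differences, so that test does not bear on the Smad9 calls. RNA calls rest on the deposited adjusted p, since a limma fit needs values per library. Named were all member genes, called genes of the lists (some results of which are not reported here), or 2 by smallest p in a list without calls, and the 5 genes nearest to Smad9. Bambi, Tgfb3 and Thbs1 were named after their values were seen. The members, lists and rules were chosen with earlier results of these data known. Replicates are separate animals as far as the labels say. The limma and permutation p-values set score differences against the spread between animals. What spread the deposited RNA p-values rest on is unknown. Alternatives were other pseudocounts, filters, scalings and adjustments, a logit scale, fewer animals and a replicate block, and splits by the letter of the animal code, added after seeing the data.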

Additional observations from a re-analysis of the deposited data

How the results depend on the processing

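The Smad9 difference kept its direction in all 3 RNA comparisons under each pseudocount and scaling tried. Its call rests on the deposited adjusted p, which pseudocount and scaling cannot change. With an unadjusted p below 0.05 in place of the adjusted one, 2 of the 6 SMAD genes passed for HID versus SID (with Smad3) and 2 for HID versus LID (with Smad1), in place of 1. Differences of genes that were not called changed sign under scaling. Smad4 for HID versus SID was 0.0335 relative to the median of all tested genes and 0.0462 with upper quartile scaling. For LID versus SID these values were 0.0059 and 0.0289 for Smad2, 0.0102 and 0.045 for Smad4, and 0.0286 and 0.0476 for Smad5.

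At the Smad9 site, LID minus SID was −13.0 with only the 6 animals of both diets (limma adjusted p = 0.0682), and ran between −16.8 and −11.1 when animals were left out in turn. HID minus LID lost its call on the logit scale (0.60, adjusted p = 0.0532), with only 6 animals (14.1, adjusted p = 0.0655), with the ordinary spread of the site (14.1, adjusted p = 0.0511) and within letter M (14.3, adjusted p = 0.709), and ran between 12.1 and 16.02 when animals were left out. HID minus SID ran between −2.69 and 3.00. The replicate block left the differences at −13.0 (adjusted p = 0.0373), 14.1 (0.0364) and 1.06 (0.922) and changed no call. Same-numbered animals share only that number in the labels. Their deviations from the diet means correlated between −0.499 and 0.757, with 4 of 9 pairs over 0.1. These few correlations over selected sites cannot decide whether the animals were paired. Letter M holds 1 HID animal, which was assumed to vary like the LID animals. The RNA values, 1 per diet, allow no left-out library.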
